A study of Homo sapiens with 8 samples.

Results

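The p53 target genes examined here are 32 genes taken by symbol from general knowledge of the pathway, of 61906 genes in the RNAseq table of U251 cells. They were chosen with earlier results of these data known. All 32 were found, each on a single row, and 27 of them had a mean of 1 TPM or more (a transcript level scaled for transcript length and for the total of its library) over the 8 libraries. The cultures were treated with vehicle (DMSO, 4 biological replicates) or with LLY-283 at 100 nM (4 biological replicates), both for 24 h, and were not irradiated. U251 is a human glioblastoma cell line, labelled WT for genotype in both groups, and LLY-283 inhibits PRMT5, an arginine methyltransferase that makes symmetric dimethylarginine. It is 1 cell line at 1 dose and 1 time, so the replicates measure the spread between cultures of that line. Poly(A) RNA was captured from cells in bulk, so less RNA per cell and fewer cells expressing a gene cannot be told apart. TPM does not preserve read numbers, so the libraries' depth is unknown.

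p53 is a transcription factor that is held low by the ubiquitin ligase MDM2 and its partner MDM4 and is stabilized after DNA damage. It then binds a motif made of a pair of half-sites and raises genes that stop the cell cycle, repair DNA, limit oxidative stress or start apoptosis. PRMT5 is known to methylate p53 and the Sm proteins of the spliceosome.

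The p53 motif was looked for on GRCh38 within 2500 bases on each side of the start of the canonical transcript, because the list was chosen by name and not by sequence. A match was 2 half-sites of 10 bases in direct contact, with at most 1 mismatch and none in the fixed C and G of each half-site. The motif reads the same on both strands, and no other motif was searched. It was found at 6 of the 32 members (18.8%), against 104 of 20033 protein-coding genes (0.52%). The members were listed as known p53 targets, so this higher share may follow from that choice and is not support for the list. In a second list of 33 p53 targets, described after the members, the motif was found at 1 gene, DDB2 (3.03%), named after the search was made. Of these 6 matches 2 had no mismatch, those of PLK2 and ZMAT3. No match was found at MDM2 or at CDKN1A, a gene of the second list. The sites below are those of members with a match, which most members lacked. Each line gives 30 bases of the reference on the strand of the gene, 5′ to 3′, with the 20 bases of the motif in capitals.
PLK2: atgagAAACATGCCTGGACTTGCCCtgcac
ZMAT3: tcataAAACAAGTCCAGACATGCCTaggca
GADD45A: gtacaGAACATGTCTAAGCATGCTGgggac
CCNG1: tgtgaGCACAAGCCCAGGCTAGTCCgaggc
EDA2R: tctgaGAACATGCCTGGACGTGTCCaacaa
The PLK2 site (chr5:58462269-58462298, minus strand) is centered 2198 bases upstream of the start. The ZMAT3 site (chr3:179070183-179070212, minus strand) is in an intron, 1612 bases downstream of the start, and the GADD45A site (chr1:67686770-67686799, plus strand) in an intron at 1584 bases. The CCNG1 site (chr5:163437921-163437950, plus strand) and the EDA2R site (chrX:66638708-66638737, minus strand) are intronic at 340 and 356 bases. The sixth member with a match was RRM2B, in an intron. By response to LLY-283, the motif was found at 1 of 7 decreased members (GADD45A), 1 of 2 increased members (PLK2), 3 of 18 tested members that were not called (CCNG1, RRM2B, ZMAT3) and 1 of 5 members too low to test (EDA2R). Among all tested protein-coding genes it was found at 12 of 2069 decreased genes (0.58%) and 5 of 1176 increased genes (0.43%). A match is a description of these letters and not of binding, and sites with a spacer, with more mismatches or farther from the start are outside this search.

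A few facts on the libraries bear on what follows. The glial and U251 markers GFAP, VIM, NES, CD44, S100B and SOX2 were expressed at 2.34 to 4390.24 TPM, and PTPRC, AIF1, PECAM1, EPCAM and RBFOX3, markers of other cell types, at 0 to 0.1 TPM. Of the glial and U251 markers, GFAP (log2 fold change -0.25), SOX2 (-0.27) and NES (-0.17) were lower with LLY-283 and CD44 (0.11) was higher (limma adjusted p = 0.00082, 0.000349, 0.000731 and 0.0168), while VIM (-0.06) and S100B (-0.43) did not pass the test. The call of CD44 was lost without vehicle replicate 1, 2 or 4 or LLY-283 replicate 1, and VIM was called lower without LLY-283 replicate 4 (-0.09, limma adjusted p = 0.00179). The part of these shifts in the results was not tested. Genes of the mitochondrial genome made up 10.2% to 11.0% of the TPM of 7 libraries and 7.19% in LLY-283 replicate 4. That library was the lowest of its group for 12 of the 27 expressed members, against 37.5% of all genes tested. It was the highest of its group for 7 members, against 30.9% of all genes tested. Without that library 7 members were decreased and 1 was increased by the test described next, against 18.4% and 10.4% of all genes tested.

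Of the 27 p53 target genes tested, 7 were lower and 2 higher after LLY-283, and all genes tested leaned the same way (17.6% decreased and 8.61% increased). TP53I3, POLH, BTG2, TP53INP1, FDXR, GADD45A and SFN fell, by 1.15-fold (GADD45A, SFN) to 1.52-fold (TP53I3) in mean TPM, and PLK2 and DRAM1 rose by 1.22-fold and 1.12-fold. The 18 remaining expressed members did not pass the test, among them both death receptors above 1 TPM, FAS and TNFRSF10B. Members were tested with limma on log2(TPM + 0.1) in a fit over all 14478 genes of at least 1 TPM, with Benjamini-Hochberg adjustment over all of them. At an adjusted p-value under 0.05, 7 of the 27 members tested were decreased (25.9%), against 17.6% of all genes tested, and 2 were increased (7.41%), against 8.61%. In either direction the shares were 33.3% of members and 26.2% of all genes, so the count of members is not far from the background. The median log2 fold change of the 27 members was -0.13, against -0.05 for all genes tested, and 18 of the 27 had a fitted change below 0 (66.7%, against 60.2%). Other scalings changed these shares. Under quantile normalization 5 members were decreased and 2 increased (all genes 12.6% and 12.9%). With median-of-ratios scaling 6 members were decreased and 2 increased (all genes 12.9% and 13.3%), and with each library's trend on GC content and length removed 5 were decreased and 4 increased (all genes 11.4% and 19.4%). The median depended on the processing and on 1 library. It was -0.06 without LLY-283 replicate 4 (all genes -0.04) and -0.01 under quantile normalization (all genes 0.01).
Only TP53I3 changed by more than 1.5-fold at that p-value (3.70% of members decreased past this fold, against 3.48% of all genes), and none of the members was increased past this fold (against 0.394%). This single call was lost without vehicle replicate 2, vehicle replicate 4 or LLY-283 replicate 2, where its log2 fold change was -0.58, -0.56 and -0.57. It was also lost with a pseudocount of 1 (-0.58), quantile normalization (-0.56), median-of-ratios scaling (-0.56) or the GC and length trend removed (-0.50). The share of all genes past this fold was not taken in these fits. The 4 LLY-283 values lay below all 4 vehicle values for 7 members, the same 7 that were decreased (25.9%, against 19.6% of all genes tested), and above them for PLK2 and DRAM1 (7.41%, against 9.63%).

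**Figure D1:**
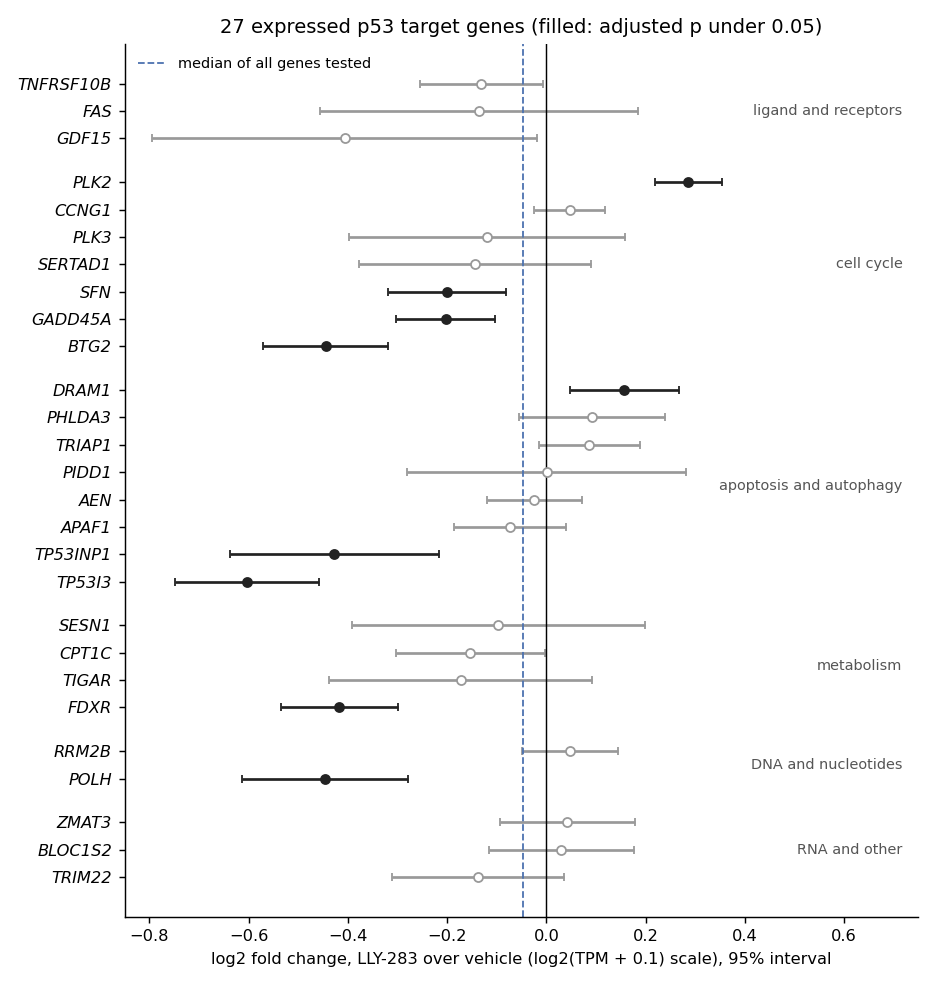
Log2 fold change of LLY-283 over vehicle (horizontal axis, log2(TPM + 0.1) scale) for the 27 expressed p53 target genes, grouped by role. Points are limma estimates with 95% intervals, filled where the adjusted p-value is under 0.05, and the dashed line is the median of all genes tested (-0.05). The 7 filled points on the left run from SFN at -0.20 to TP53I3 at -0.60, and the 2 on the right are DRAM1 at 0.16 and PLK2 at 0.29.

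Among the genes of cell cycle arrest and growth control, 3 of 7 members fell, 1 rose and 3 were not called. This count and those of the other roles, over 2 to 8 tested members each, stand beside 17.6% decreased and 8.61% increased among all genes tested. BTG2, an antiproliferative protein that recruits the CCR4-NOT deadenylase (chromosome 1, 203305491 to 203309602), was expressed at 23.46, 23.93, 25.23 and 26.02 TPM in the vehicle libraries and at 18.71, 17.16, 19.48 and 17.07 TPM in the LLY-283 libraries. The groups did not overlap, and the log2 fold change was -0.44 (SE 0.056, limma adjusted p = 0.000645). GADD45A, a growth arrest protein that binds PCNA (chromosome 1, 67685201 to 67688334), had 30.99, 32.96, 30.16 and 33.48 TPM with vehicle and 26.47, 27.97, 27.98 and 28.32 TPM with LLY-283. Every LLY-283 value was below the lowest vehicle value, at a log2 fold change of -0.20 (SE 0.044, limma adjusted p = 0.00957). After correction for GC content and length the change of GADD45A was -0.08 (adjusted p = 0.228).
SFN (stratifin), which holds cyclin B and CDK1 in the cytoplasm after damage (chromosome 1, 26863149 to 26864456, a gene of 1 exon), had 13.63, 14.55, 13.30 and 13.76 TPM with vehicle and 12.31, 11.19, 11.92 and 12.63 TPM with LLY-283. Its groups did not overlap either, and their nearest values were 0.67 TPM apart, beside standard deviations of 0.530 TPM with vehicle and 0.620 TPM with LLY-283. The log2 fold change of SFN was -0.20 (SE 0.053, limma adjusted p = 0.0224). The call was lost without vehicle replicate 2, vehicle replicate 4, LLY-283 replicate 2 or LLY-283 replicate 3 (adjusted p between 0.0529 and 0.0625). It was also lost with median-of-ratios scaling (-0.16, adjusted p = 0.0699) and under quantile normalization (-0.11, adjusted p = 0.241), and correction for GC content and length gave -0.09 (adjusted p = 0.255).
PLK2, a polo-like kinase of the centrosome and of the stress response (chromosome 5, 58453982 to 58460139), was the most abundant member and went the other way. It was expressed at 167.91, 161.11, 171.28 and 160.10 TPM with vehicle and at 204.52, 200.91, 202.96 and 196.66 TPM with LLY-283. The groups were 25.4 TPM apart at their nearest values, beside a standard deviation within each that was far smaller (5.39 TPM with vehicle, 3.41 TPM with LLY-283). The log2 fold change of PLK2 was 0.29 (SE 0.030, limma adjusted p = 0.000267) and stayed between 0.27 and 0.36 over the 19 alternatives tried. Its relative PLK3 had 10.37 to 13.26 TPM with vehicle and 8.95 to 12.24 TPM with LLY-283, and was not called (log2 fold change -0.12, 95% interval -0.40 to 0.16). CCNG1, cyclin G1, a partner of phosphatase 2A, had 55.72, 54.17, 53.99 and 55.43 TPM with vehicle and 58.55, 57.25, 56.05 and 54.74 TPM with LLY-283. Its groups overlapped through LLY-283 replicate 4 alone, and it was not called (log2 fold change 0.05, 95% interval -0.02 to 0.12), although after correction for GC content and length it was (0.12, limma adjusted p = 0.0138). SERTAD1, a regulator of CDK4 and E2F activity, was not called at 8.12 ± 1.08 TPM with vehicle and 7.31 ± 0.694 TPM with LLY-283 (SD, n = 4 each).

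Of the 11 members that act in apoptosis and autophagy, 8 were expressed, of which 2 fell, 1 rose and 5 were not called. TP53I3, a quinone oxidoreductase that raises reactive oxygen species (chromosome 2, 24077433 to 24085861), had the largest change of all members tested. Its vehicle libraries had 33.15, 37.26, 32.48 and 38.92 TPM and its LLY-283 libraries 23.72, 21.63, 23.89 and 23.83 TPM. The nearest values of the groups were 8.59 TPM apart, and the log2 fold change was -0.60 (SE 0.065, limma adjusted p = 0.000306). TP53INP1, a nuclear stress protein that promotes cell death and autophagy (chromosome 8, 94925972 to 94949378), had 4.50, 3.94, 4.60 and 4.00 TPM with vehicle and 3.22, 3.11, 3.36 and 2.87 TPM with LLY-283. The groups did not overlap, and the log2 fold change was -0.43 (SE 0.094, limma adjusted p = 0.00987), or -0.25 under quantile normalization (adjusted p = 0.0547).
DRAM1, a lysosomal membrane protein that promotes autophagy (chromosome 12, 101877580 to 102012130), had 20.55, 19.57, 19.72 and 20.62 TPM with vehicle and 22.57, 23.56, 20.64 and 23.09 TPM with LLY-283. The groups were separated by only 0.02 TPM, between vehicle replicate 4 and LLY-283 replicate 3. The log2 fold change of DRAM1 was 0.16 (SE 0.049, limma adjusted p = 0.0415). The call held without LLY-283 replicate 3 (adjusted p = 0.0147) and was lost without any other single library, that is, without vehicle replicate 1, 2, 3 or 4 or LLY-283 replicate 1, 2 or 4 (adjusted p between 0.0664 and 0.107).
TRIAP1, an inhibitor of apoptosis at the mitochondrion, had 51.05, 46.80, 48.48 and 48.68 TPM with vehicle and 51.09, 51.20, 49.05 and 55.82 TPM with LLY-283, overlapping groups with a log2 fold change of 0.09 (95% interval -0.02 to 0.19). The change of TRIAP1 was 0.20 after correction for GC content and length, where it was called (limma adjusted p = 0.0211), and 0.05 without LLY-283 replicate 4. AEN, a nuclease of apoptotic cells, had 23.14, 22.37, 21.85 and 22.70 TPM with vehicle and 21.06, 22.29, 21.85 and 23.42 TPM with LLY-283, with a log2 fold change of -0.02 (95% interval -0.12 to 0.07). The intervals of TRIAP1 and AEN leave no room for a change of 1.5-fold. APAF1, the scaffold of the apoptosome, was at 14.0 ± 0.675 TPM with vehicle and 13.3 ± 0.412 TPM with LLY-283, and PHLDA3, an inhibitor of AKT, at 17.9 ± 1.47 and 19.1 ± 1.01 TPM (SD, n = 4 each). PIDD1, the scaffold that activates caspase-2, had a log2 fold change of 0.00, with LLY-283 replicate 4 at 9.93 TPM and the other 7 libraries at 12.66 to 15.43 TPM. TP53I11 had 0.16 to 0.49 TPM, SPATA18, a protein of mitochondrial quality control, 0.02 to 0.11 TPM, and PERP, a membrane protein of desmosomes, was listed at 0 in all 8 libraries, so these 3 members were not tested.

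**Figure D2:**
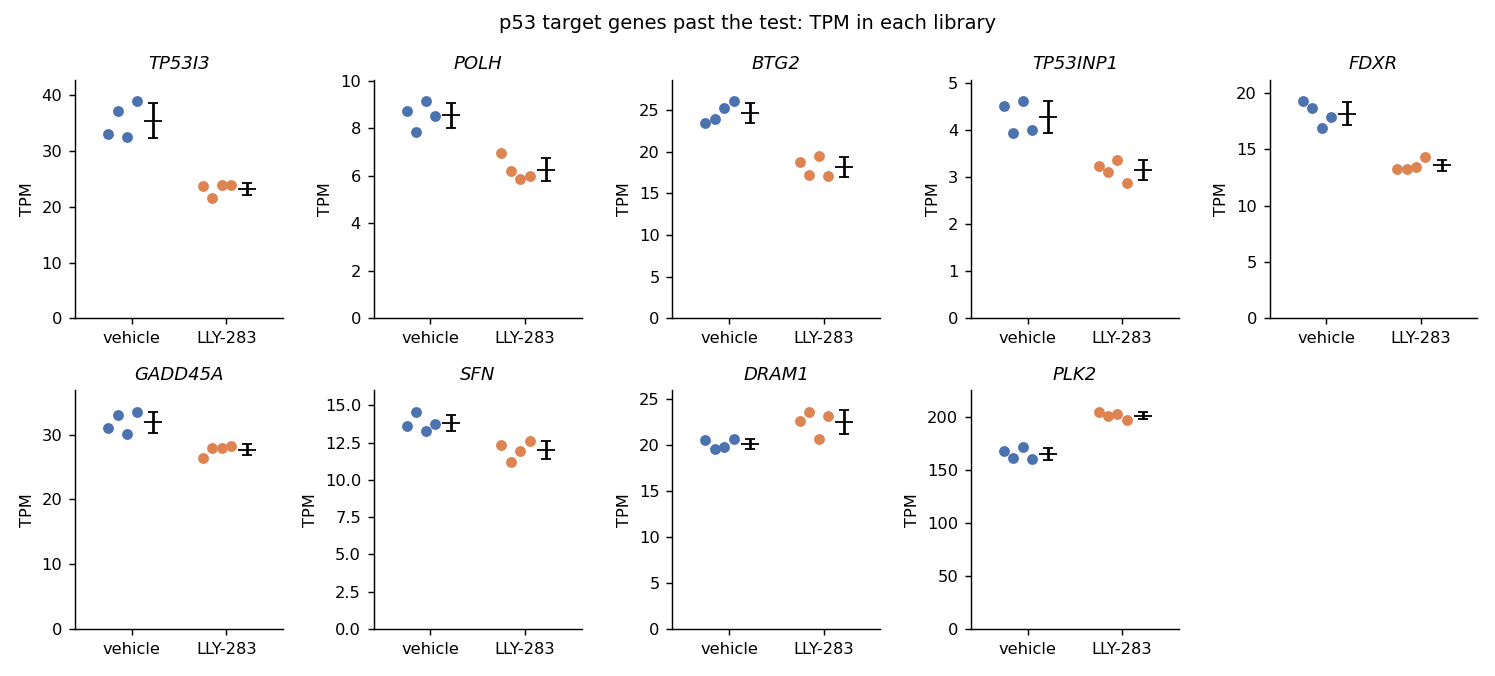
TPM of the 9 p53 target genes past the test, in each vehicle (left) and LLY-283 library (right), with the mean and SD of 4 libraries as a bar beside the points. Vertical axes start at 0. In the first 7 panels all LLY-283 points lie below the vehicle points, from TP53I3 (35.5 against 23.3 TPM) to SFN (13.8 against 12.0 TPM), and in the panels of DRAM1 and PLK2 all lie above.

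Of the secreted and receptor members, none of the 3 expressed ones passed the test. TNFRSF10B, the TRAIL death receptor DR5, had 64.72, 61.67, 67.79 and 63.37 TPM with vehicle and 61.99, 60.44, 60.65 and 52.43 TPM with LLY-283. LLY-283 replicate 4 was the lowest, and replicate 1 overlapped the vehicle group. Its log2 fold change of -0.13 (95% interval -0.26 to -0.01) did not pass the adjustment (adjusted p = 0.113, limma), and without LLY-283 replicate 4 it was -0.08. GDF15, a secreted stress cytokine of the TGF-beta family, had 3.48, 3.83, 4.02 and 6.21 TPM with vehicle and 3.60, 2.77, 3.20 and 3.28 TPM with LLY-283. It was the least precise member, with a log2 fold change of -0.41 and a 95% interval of -0.79 to -0.02 (adjusted p = 0.114, limma), and the only one of the 18 whose interval reached beyond 1.5-fold. Without vehicle replicate 4, its highest library, the log2 fold change of GDF15 was -0.23, and under quantile normalization -0.24. FAS, the receptor of FAS ligand, was low in both groups, at 1.94 to 2.20 TPM with vehicle and 1.51 to 2.16 TPM with LLY-283 (log2 fold change -0.14, 95% interval -0.46 to 0.19). EDA2R, a receptor of ectodysplasin, had 0.29 to 0.54 TPM with vehicle and 0.18 to 0.40 TPM with LLY-283 and was not tested.

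In the metabolic group, 1 of the 4 expressed members fell and 3 were not called. FDXR, the mitochondrial reductase that passes electrons to ferredoxin (chromosome 17, 74862497 to 74873031), had 19.25, 18.64, 16.88 and 17.86 TPM with vehicle and 13.28, 13.24, 13.43 and 14.30 TPM with LLY-283. The highest LLY-283 value was below the lowest vehicle value, and the log2 fold change was -0.42 (SE 0.053, limma adjusted p = 0.000623). SESN1, a sestrin that restrains mTORC1, was at 4.03 ± 0.281 TPM with vehicle and 3.81 ± 0.754 TPM with LLY-283 (SD, n = 4 each). TIGAR, a phosphatase that turns glucose toward the pentose phosphate pathway, was at 12.3 ± 1.44 and 10.9 ± 1.58 TPM, with LLY-283 replicate 4 lowest at 8.60 TPM. CPT1C, the brain form of carnitine palmitoyltransferase, was at 21.3 ± 1.54 and 19.1 ± 1.35 TPM, a log2 fold change of -0.15 that did not pass the adjustment (adjusted p = 0.123, limma). ACER2, an alkaline ceramidase, lay just under the level needed for a test, at 0.84 to 1.04 TPM with vehicle and 0.58 to 0.87 TPM with LLY-283.

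Of the 2 members of DNA repair and nucleotide supply, 1 fell and 1 was not called. POLH, the translesion DNA polymerase eta that copies past ultraviolet damage (chromosome 6, 43576185 to 43620523), had 8.72, 7.86, 9.14 and 8.51 TPM with vehicle and 6.96, 6.19, 5.87 and 6.01 TPM with LLY-283. The groups did not overlap, and the log2 fold change was -0.45 (SE 0.075, limma adjusted p = 0.00259). RRM2B, the p53-inducible subunit of ribonucleotide reductase, had 16.04 to 17.08 TPM with vehicle and 16.64 to 17.98 TPM with LLY-283, overlapping groups with a log2 fold change of 0.05 (95% interval -0.05 to 0.14). The difference between these 2 members was not tested.
The 3 members of other function were not called. BLOC1S2, a subunit of the complex that builds lysosome-related organelles, had 40.69, 41.89, 37.74 and 42.49 TPM with vehicle and 37.39, 46.40, 41.77 and 41.06 TPM with LLY-283. TRIM22, an antiviral ubiquitin ligase, had 32.13, 26.51, 27.45 and 32.33 TPM with vehicle and 28.52, 27.55, 27.01 and 24.27 TPM with LLY-283. In both genes the groups overlapped, with log2 fold changes of 0.03 (95% interval -0.12 to 0.18) and -0.14 (95% interval -0.31 to 0.04). ZMAT3, an RNA-binding protein that regulates splicing and holds an exact p53 motif in its gene, was at 8.05 ± 0.458 TPM with vehicle and 8.29 ± 0.312 TPM with LLY-283 (SD, n = 4 each). The change of ZMAT3 on the log2 scale was 0.04 (95% interval -0.09 to 0.18).

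Over all 18 expressed members that were not called, 17 had 95% intervals within 1.5-fold in both directions, GDF15 being the exception. The sizes of these changes were not stable. For 16 of the 18, all but APAF1 and CPT1C, leaving out a single library moved the log2 fold change by over 1.5 times or turned its sign, and none of the 18 was called in any of these fits. Without LLY-283 replicate 4 it was -0.03 for PLK3, -0.06 for TIGAR and -0.09 for TRIM22, and without LLY-283 replicate 3 it was -0.04 for FAS and -0.03 for SESN1. Other libraries moved it the other way, to -0.22 for SESN1 without LLY-283 replicate 1, -0.22 for SERTAD1 without vehicle replicate 3, -0.18 for PLK3 without LLY-283 replicate 2 and 0.08 for ZMAT3 without vehicle replicate 3. Without vehicle replicate 4 it was -0.07 for SERTAD1, without vehicle replicate 1 0.04 for PHLDA3, and without LLY-283 replicate 1 0.02 for RRM2B, 0.03 for CCNG1 and 0.02 for ZMAT3. The members differed widely in level, from 1.97 TPM for FAS to 183 TPM for PLK2 (mean of the 8 libraries, median of the 27 members 16.8 TPM). The coefficient of variation between replicates had a median of 5.64% with vehicle and 6.55% with LLY-283, and reached 28.2% for GDF15 with vehicle.

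MDM2, the ubiquitin ligase that degrades p53 and is itself a target of p53, had 30.14, 28.66, 33.00 and 30.96 TPM with vehicle and 31.11, 29.63, 30.73 and 29.16 TPM with LLY-283. The groups overlapped throughout, at a log2 fold change of -0.02 (95% interval -0.13 to 0.08). MDM4, the partner of MDM2, had 8.62, 12.35, 10.35 and 9.28 TPM with vehicle and 10.74, 9.51, 10.81 and 6.66 TPM with LLY-283, with LLY-283 replicate 4 the lowest library. Its log2 fold change of -0.12 had a wide 95% interval (-0.48 to 0.25). The change of MDM4 turned to 0.04 without LLY-283 replicate 4 and was -0.02 without vehicle replicate 2. Without vehicle replicate 1 or LLY-283 replicate 3 it was -0.19. Gene totals of this kind do not show which isoforms of MDM4 were made.
Of 13 genes related to p53 or regulating it, 12 were expressed at 1 TPM or more, of which 1 was increased (8.33%, against 8.61% of all genes tested) and 1 was decreased (8.33%, against 17.6%). The increased genes numbered 0 without vehicle replicate 1, 2 or 4 or LLY-283 replicate 1 or 3 (all genes 6.13% to 6.62%) and 2 without vehicle replicate 3 (all genes 7.07%), and 2 genes were decreased without LLY-283 replicate 4 (all genes 18.4%). USP7, the deubiquitinase of MDM2 and p53, went from 66.7 ± 2.47 to 75.0 ± 4.04 TPM (log2 change 0.17, limma adjusted p = 0.0224), a call that was lost without vehicle replicate 1, 2 or 4 or LLY-283 replicate 1 or 3 (adjusted p between 0.0537 and 0.0621). COP1, another ubiquitin ligase of p53, declined from 30.3 ± 1.93 to 24.5 ± 1.78 TPM (SD, n = 4 libraries each), with a log2 change of -0.31 (limma adjusted p = 0.00677). TP63 had 0.02 to 0.12 TPM and TP73, which was not called, 3.68 to 4.77 TPM.

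**Figure D3:**
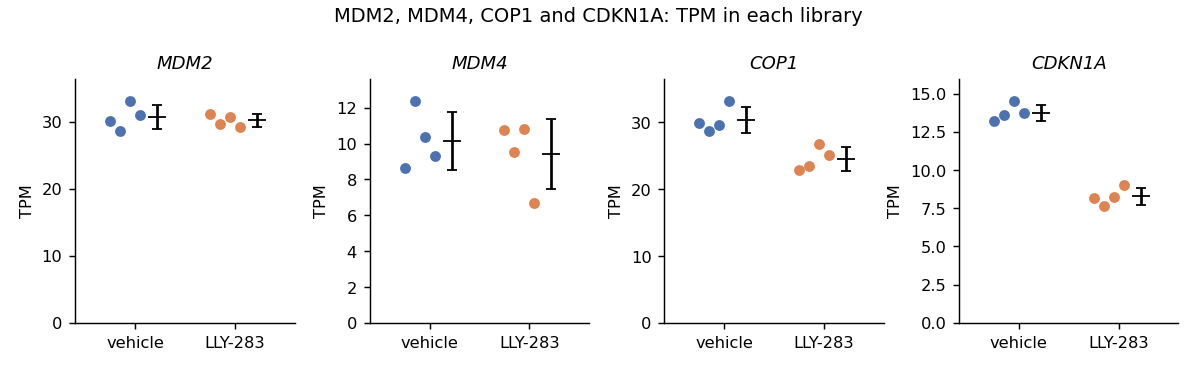
TPM of MDM2, MDM4, COP1 and CDKN1A in each vehicle (left) and LLY-283 library (right), with mean and SD of 4 libraries as a bar. Vertical axes start at 0. CDKN1A is lower in all LLY-283 libraries (means 13.8 and 8.27 TPM), COP1 has means of 30.3 and 24.5 TPM, and the points of MDM2 and MDM4 overlap.

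A further 33 targets of p53 outside the list of members were taken from general knowledge, with earlier results of these data known. Of them, 30 were expressed at 1 TPM or more. Of these 30, 8 were decreased (26.7%, against 17.6% of all genes tested) and 1 was increased (3.33%, against 8.61%). CDKN1A, which encodes the cell cycle inhibitor p21, had 13.23, 13.60, 14.49 and 13.70 TPM with vehicle and 8.19, 7.67, 8.21 and 9.02 TPM with LLY-283. The groups did not overlap, and at a log2 fold change of -0.73 (adjusted p = 7.95e-05, limma) it changed more than any of the 27 members. DDIT4, an inhibitor of mTORC1, declined from 184 ± 4.87 to 137 ± 7.77 TPM (log2 change -0.43, limma adjusted p = 0.000188), and XPC, the damage sensor of nucleotide excision repair, from 21.1 ± 0.288 to 15.7 ± 1.29 TPM (SD, n = 4 libraries each), with a log2 change of -0.43 (limma adjusted p = 0.000984). The single increased gene, named after its values were seen, was PML, the scaffold of PML bodies, at 62.4 ± 2.04 TPM with vehicle and 69.6 ± 3.51 TPM with LLY-283 (log2 fold change 0.16, adjusted p = 0.0228). Leaving out vehicle replicate 1, vehicle replicate 4 or LLY-283 replicate 1 left 0 increased genes in this list (all genes 6.13% to 6.62%), and leaving out LLY-283 replicate 4 gave 10 decreased genes (all genes 18.4%).

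Some members share exons with a neighbor on the opposite strand, where unstranded counting could mix the reads (the strandedness of the counting is not given in the sources used here). GTPBP2, opposite POLH, fell too (54.9 ± 0.952 to 45.6 ± 5.70 TPM, log2 change -0.28, limma adjusted p = 0.0334), a call lost in 9 of the 19 alternatives, among them those without vehicle replicate 1, 2, 3 or 4 or LLY-283 replicate 1. The size of the GTPBP2 change rested on LLY-283 replicate 4, without which it was -0.18 (limma adjusted p = 0.00204). FAM228B, opposite TP53I3, had 2.57 ± 0.906 and 1.75 ± 0.531 TPM, and NDUFAF6, opposite TP53INP1, 15.4 ± 0.503 and 15.9 ± 1.03 TPM (SD, n = 4 each), and neither was called. FAM228B was called without vehicle replicate 2 (-0.79, limma adjusted p = 0.0361). ENSG00000257202, a noncoding gene opposite DRAM1, was listed at 0 in all libraries. BTG2, FDXR, GADD45A, SFN and PLK2 overlap no exon of another gene in the annotation used. These neighbors were named for their position after the members' values were known, and their part in the results was not tested.

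**Figure D4:**
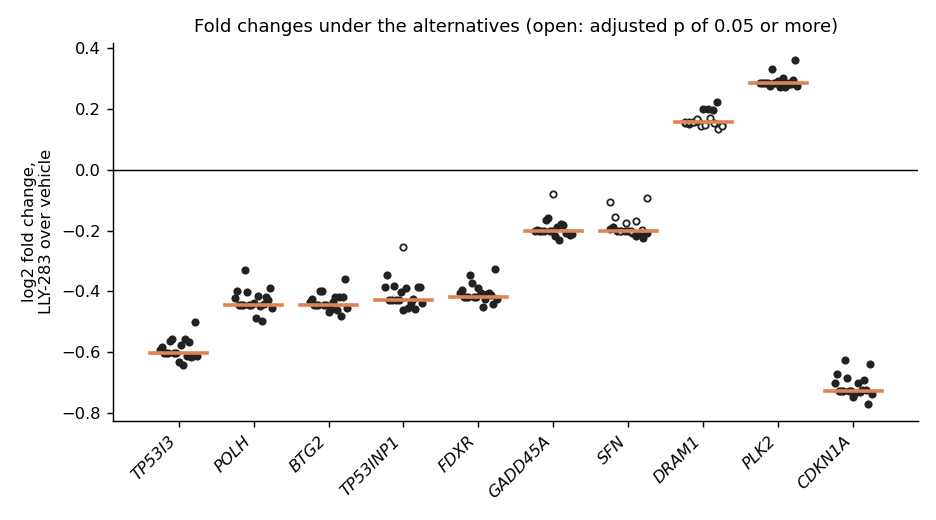
Log2 fold change of LLY-283 over vehicle (vertical axis) for the 9 called members and CDKN1A. The orange line is the value reported, and each point is 1 of the 19 alternative settings (18 for TP53INP1, which a filter at 5 TPM leaves out), open where the adjusted p-value was 0.05 or more. TP53I3, POLH, BTG2, FDXR, PLK2 and CDKN1A have no open point. DRAM1 has 10, SFN 8 and TP53INP1 and GADD45A 1 each.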

How the data were processed

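Poly(A) RNA of U251 cultures, 4 with vehicle and 4 with LLY-283, was sequenced. Per the paper's methods the authors used the RNA-seek pipeline, Cutadapt, STAR on GRCh38 and RSEM with GENCODE release 41. The submitters' processing notes give cutadapt 1.18, STAR 2.7.0f and RSEM 1.3.1, and the STAR and RSEM versions differ from those in the paper. The values the authors deposited are TPM per gene and library, unfiltered and rounded to 2 decimals. Counts and depth were not used here, and count tests were not fitted.

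The 14478 genes whose mean reached 1 TPM were put on the log2(TPM + 0.1) scale and compared with limma 3.58.1 (lmFit, eBayes with a mean-variance trend, two-sided) in R 4.3.3, without a replicate block, with Benjamini-Hochberg adjustment over all genes. Fold changes are on that scale, which understates those of low genes; folds in mean TPM are ratios of group means. The fit was tested before use on simulated data in which 200 of 14478 genes changed by 1 on the log2 scale. It recovered 89.5% of them, with 11 false calls. Smaller changes, such as those of the called members, were not simulated. Replicates are biological replicates per the labels. Positions, exons and motif matches came from GENCODE release 44 and the GRCh38 sequence.

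The members and both further gene lists were chosen with earlier results of these data known. All 32 members are named. Values per library are given for called members and the 6 most abundant members not called (and for GDF15, added after its values were seen), and of the other lists MDM2, MDM4, CDKN1A and the 3 largest called changes of each are named. A gene that this rule also selects is not reported here. The alternatives were other pseudocounts and filters, quantile and median-of-ratios scaling, eBayes without a trend, a replicate block and each library left out. Leaving out mitochondrial genes and removing each library's trend on GC content and length (splines with 4 degrees of freedom each, over 14457 genes) were added later.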

Additional observations from a re-analysis of the deposited data

Results flagged for a closer look

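In groups of 4 libraries, a library was set apart where its gap to the nearest of the others was a larger part of the group's range than Dixon's 95% critical value for 4 values (chance passes it in about 1 of 20 groups). Of 90 groups examined (45 named genes, 2 groups each), 8 such libraries were found (8.89%). TNFRSF10B had 52.43 TPM in LLY-283 replicate 4, against 60.44 to 61.99 TPM in the other 3. TIGAR had 8.60 TPM in LLY-283 replicate 4, against 11.50 to 12.04 TPM. TP53I3 had 21.63 TPM in LLY-283 replicate 2, against 23.72 to 23.89 TPM, 1 of 3 libraries whose removal, each on its own, takes its change below 1.5-fold. ZMAT3 had 8.75 TPM in LLY-283 replicate 1, against 8.10 to 8.18 TPM. XPC had 21.54 TPM in vehicle replicate 2, against 20.94 to 21.00 TPM. VIM had 4390.24 TPM in LLY-283 replicate 4, against 4018.59 to 4043.88 TPM. GTPBP2 had 56.33 TPM in vehicle replicate 3, against 54.27 to 54.56 TPM, and 37.10 TPM in LLY-283 replicate 4, against 47.63 to 48.97 TPM.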

How the results depend on the processing

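Over 19 alternatives, 17 of them planned, the 45 named genes tested gave 848 values, of which 775 kept their direction and their side of the threshold, 44 lost and 6 gained a call (TRIAP1 and CCNG1 with the trend on GC content and length removed, FAM228B without vehicle replicate 2, and VIM in 3 alternatives) and 23 changed sign. No call changed sign. The calls lost were those of DRAM1 (10 alternatives), SFN (8), USP7 (6), PML (3), TP53INP1 (1) and GADD45A (1), and, of the markers and neighboring genes, GTPBP2 (9) and CD44 (6). Between 5 and 7 members were decreased in all 19 alternatives, while the share of all genes decreased ran from 6.49% (no filter) to 19.3% (mean of at least 5 TPM). The increased members numbered 1 without a filter (all genes 2.96%), with eBayes without a trend (7.16%) or with the replicate block (7.56%), 4 with the GC and length trend removed (19.4%), and 1 to 2 with each library left out (6.13% to 10.4%). Members past 1.5-fold numbered 0 with a pseudocount of 1, quantile normalization, median-of-ratios scaling or the GC and length trend removed. They numbered 0 to 1 with each library left out. The share of all genes past this fold was taken only in the fit reported, so these counts have no background beside them. The median log2 fold change of members was -0.0136 under quantile normalization (all genes 0.0145), -0.0542 with the GC and length trend removed (all genes 0.0317) and -0.157 to -0.0619 with each library left out. Among the other targets, 2 genes were increased under quantile normalization (all genes 12.9%), 2 were increased and 5 decreased with the GC and length trend removed (all genes 19.4% and 11.4%), and 0 to 1 were increased with each library left out. Among the regulators, mitochondrial genes left out gave 0 increased and 2 decreased genes (all genes 8.06% and 18.3%), the GC and length trend removed gave 2 increased genes (all genes 19.4%), and libraries left out gave 0 to 2 increased and 1 to 2 decreased genes. The causes were not tested. Increases made up 32.9% of calls over all genes, 50.7% under quantile normalization, 50.8% with median-of-ratios scaling and 63.0% with the GC and length trend removed.

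Sign changes were found in genes that were not called. The largest changes among them in the fit reported were those of FAS (-0.14) and MDM4 (-0.12). Quantile normalization gave log2 fold changes of 0.0441 for FAS, 0.0184 for APAF1, 0.0175 for AEN, 0.0734 for SESN1, 0.0756 for TP73 and 0.0141 for MDM2. Median-of-ratios scaling gave 0.0208 for AEN and 0.021 for MDM2, and removal of the GC and length trend 0.05 for AEN, 0.0315 for VIM and 0.0191 for MDM2. PIDD1 had -0.0083 with mitochondrial genes left out. With each library left out, PIDD1 ranged from -0.0695 to 0.141, AEN from -0.0508 to 0.00, BLOC1S2 from -0.0226 to 0.081, MDM2 from -0.056 to 0.0116 and MDM4 from -0.191 to 0.0391.

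Over all genes tested, same-numbered vehicle and LLY-283 replicates did not deviate together (correlations between -0.085 and 0.032). Of the 8 libraries, 0 correlated best with their own number. These correlations cannot show whether same-numbered cultures were handled together, which the labels do not give. With the replicate block, 6 members were decreased and 1 was increased (all genes 15.2% and 7.56%), and the calls of SFN (adjusted p = 0.0588, limma) and DRAM1 (adjusted p = 0.0575) were lost. TPM keeps no depth, so no counting error can be given for low members such as FAS and GDF15.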
